A study of Mus musculus with 6 samples.

Results

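The genes described here are 39 pan-neuronal differentiation genes, which newborn neurons of many types switch on as they leave the cell cycle. They were chosen by symbol as RNA-binding, cytoskeletal, transcription and synaptic genes shared by new neurons. The rule did not use the measured values, but earlier results of these data were known when the genes were chosen. All 39 were found among the 38561 genes of the count table, and all 39 were among the 16495 genes with enough reads to be tested. RNA was sequenced from cells sorted by tdTomato fluorescence from the mouse telencephalon at embryonic stage E11.5, a stage and source that the study names medial ganglionic eminence (MGE), the ventral forebrain zone that produces cortical interneurons. The 2 heterozygous libraries came from Magoh lox/+ embryos that also carried Nkx2.1-Cre and the ROSAloxSTOPloxTdTomato reporter, and the 4 control libraries from embryos with Nkx2.1-Cre and the same reporter, all of strain C57BL/6. The question set by the study is how the transcriptome of the MGE changes when a copy of Magoh, a core subunit of the exon junction complex, is lost.

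Both groups therefore share the Cre driver and the reporter, and they differ in the floxed allele. Cre is active where Nkx2-1 has been expressed, which as background includes hypothalamic as well as telencephalic cells. The labels do not say whether each library came from a separate embryo. Control 2 had 0 reads of Y-linked genes and control 3 had 4291, so these controls did not come from the same embryo. For libraries alike in Y-linked reads this is not known. The p-values therefore measure the spread among these libraries, which may be technical in part. In RNA from sorted cells, a change in the number of neurons and a change in RNA per neuron cannot be told apart.

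Neurogenesis in the ventral telencephalon proceeds from cycling radial progenitors to neurons that carry a common programme whatever transmitter they will use. Proneural basic helix-loop-helix factors start it, and transcription factors of the Nhlh, Myt and Insm families follow. RNA-binding proteins of the Elavl, Rbfox, Celf and Nova families then change splicing and transcript stability. Tubulins, stathmins, neurofilaments and microtubule-associated proteins build the axon, and synaptic and secretory proteins come last.

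As background, proneural factors bind E-boxes, so the promoters of these genes were searched for such sites. The 250 bases upstream of the RefSeq start of Nhlh1 and Nhlh2 are shown because these paralogous helix-loop-helix genes had among the smallest p-values of the set and each window holds a single CAGATG E-box, which is in capitals. The sequences are from RefSeq on GRCm38.p6, at chr1:172057597-172057846 on the minus strand for Nhlh1 and at chr3:102009895-102010144 on the plus strand for Nhlh2, and are written 5′ to 3′ in the direction of transcription. The GENCODE gene model of Nhlh2, whose coordinates are given with its values, starts further upstream, so the end of this window lies inside it.
Nhlh1: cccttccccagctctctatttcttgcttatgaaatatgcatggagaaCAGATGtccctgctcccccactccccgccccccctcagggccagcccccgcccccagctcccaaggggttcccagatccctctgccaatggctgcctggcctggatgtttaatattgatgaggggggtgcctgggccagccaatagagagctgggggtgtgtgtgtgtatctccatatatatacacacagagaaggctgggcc
Nhlh2: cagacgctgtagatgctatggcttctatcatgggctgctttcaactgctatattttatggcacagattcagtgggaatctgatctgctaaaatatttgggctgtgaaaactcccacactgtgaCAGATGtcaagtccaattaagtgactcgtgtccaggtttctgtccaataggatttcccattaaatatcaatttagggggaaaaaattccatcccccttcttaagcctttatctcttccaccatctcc
The box lies in the distal part of the Nhlh1 window and nearer the middle of the Nhlh2 window. Rbfox1 and Elavl4 also had among the smallest p-values. The windows at their most upstream starts, which are not printed, hold 0 copies of CAGATG and 0 of CAGCTG. Other windows of both genes hold an E-box. Promoter windows were available for 25 of the 39 genes, in 53 windows. A gene with several starts has several of these windows, so they are not independent. On either strand, CAGATG was found in 28.3% of these windows, against 14.4% of all 32851 windows of the same length, and it occurred in Celf3, Elavl4, L1cam, Map1b, Myt1l, Nhlh1, Nhlh2 and Stmn3. The palindromic E-box CAGCTG was found in 22.6% of the windows, against 13% of all windows, and in 9 genes. AAGTTT, the core letters bound by Myt family factors, was found in 15.1% against 12.8% of windows. The letters TCAGCAC of the REST site were found in 1.89% against 4.23%, in Tubb3 alone among these genes, and GGACAG, from the other end of that site, in 18.9% against 18.7%. These matches describe letters in a window, and factor binding was not measured.

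The libraries held 42.0 and 49.2 M counts in the heterozygous group and 37.4 to 44.2 M in controls. Magoh itself was at 57.1 and 48.6 CPM (read counts per 1e+06 in the library, scaled by TMM factors) in heterozygous libraries, against 68.1, 118, 63.6 and 74.3 CPM in controls. Both heterozygous libraries were below every control, but the difference did not pass (log2 fold change -0.62, edgeR adjusted p = 0.850), and reads of floxed exons cannot be separated in gene counts. The MGE regulator Nkx2-1 was present in every library, at 349 and 466 CPM in heterozygous libraries and 339 to 561 CPM in controls. Heterozygous 1 and control 2 had 0 reads of Y-linked genes, and the other 4 libraries had 3453 to 4291. Control 2 also had fewer reads on long genes: its genes of at least 8000 nt sat 0.75 lower on the log2 scale than those under 1000 nt (a value of -0.75), against -0.32 and 0.12 in heterozygous libraries and 0.15 to 0.38 in the other 3 controls. Heterozygous 2 and control 1 share the number in their sample codes, whose meaning the labels do not give.

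The pan-neuronal genes were on balance higher in heterozygous cells, but no single gene passed the test. The log2 fold change was positive for 36 of the 39 genes and its median was 0.49, while 46.1% of all genes were above 0 and the median of all genes was -0.03. At an unadjusted p under 0.05, 13 of 39 genes (33.3%) were higher, against 1.75% of all genes, and 0 were lower, against 3.98% of all genes. With Benjamini-Hochberg adjustment over all genes, edgeR's quasi-likelihood test called 0 of the 39 genes and 0% of all genes, and the smallest adjusted p among the 39 was 0.793. DESeq2 called 0 of the 39, against 0.468% of the genes it tested, and limma-voom called 0. Both heterozygous libraries were above all 4 controls for 12 genes (30.8%), against 6.17% of all genes, and below all controls for 0, against 8.14%. An exact permutation test of 2 against 4 libraries cannot go below p = 0.0667 for a single gene.

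The counts by unadjusted p and by sign rested strongly on heterozygous 2. Without it, with the lone heterozygous library assumed to vary like the controls, 2 genes were higher at an unadjusted p under 0.05, against 1.53% of all genes in that fit, and 28 were above 0, against 45.2%. The median of the 39 was then 0.22 and that of all genes -0.05. Without control 3, or without control 4, 8 genes were higher at an unadjusted p under 0.05, against 0.985% and 1.03% of all genes. The genes above all controls numbered 27 without heterozygous 1, against 19.9% of all genes, and 21 without control 1, against 8.64% of all genes. Without heterozygous 2 they numbered 17, for which no share of all genes is given here. These settings leave fewer libraries to compare, which raises the share of all genes as well.

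**Figure D1:**
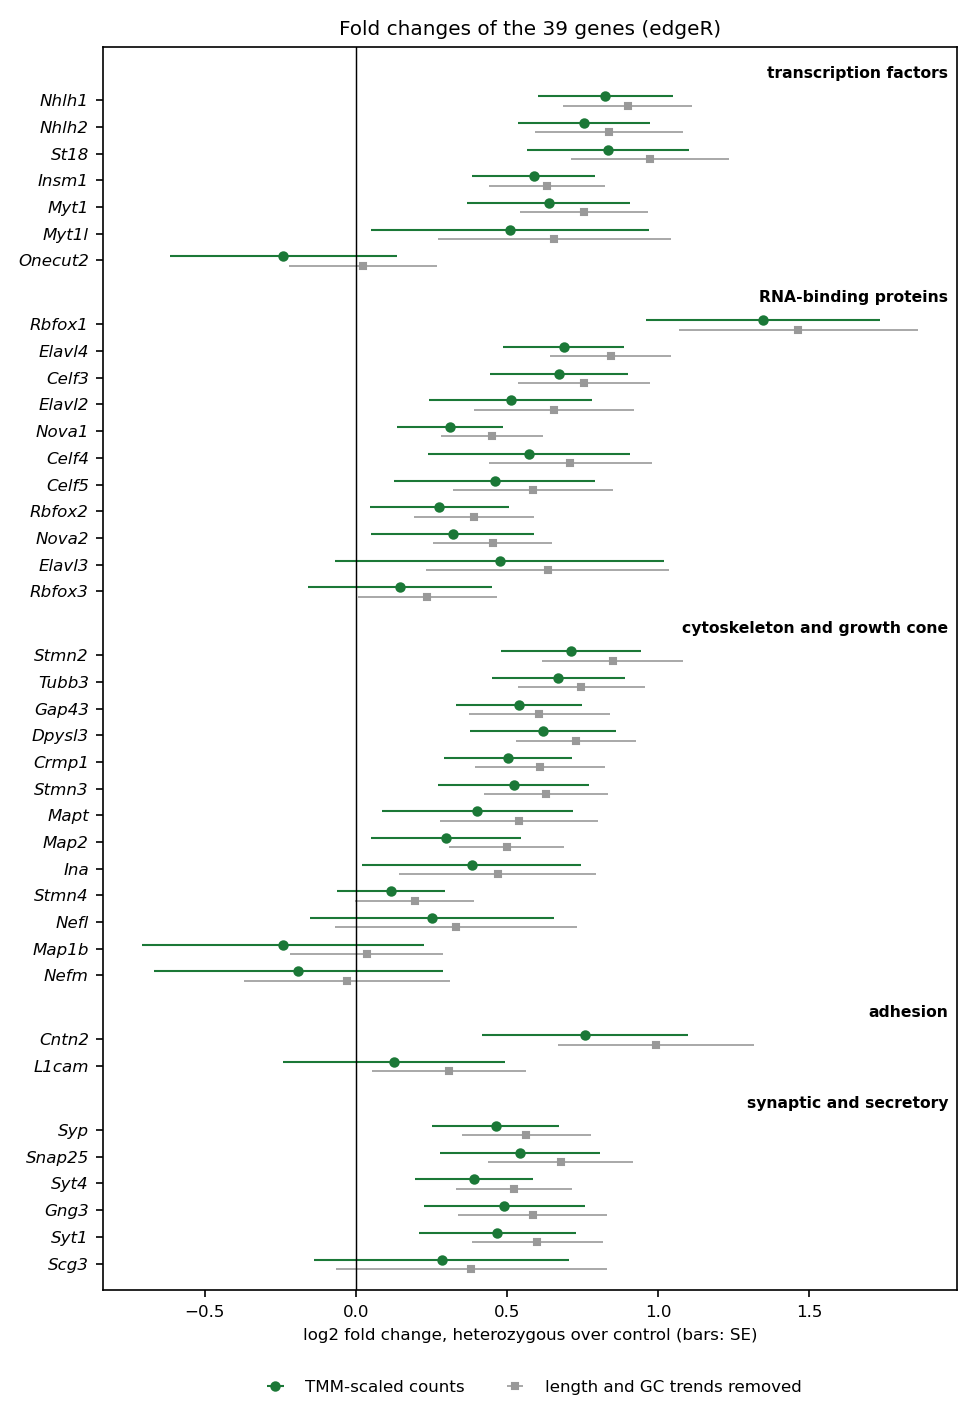
Log2 fold change, heterozygous over control, for the 39 pan-neuronal genes, grouped by role, from TMM-scaled counts (green circles) and with length and GC trends removed (grey squares), with bars for the standard error from edgeR. In all, 36 of the 39 green points lie above 0, and those of Onecut2, Map1b and Nefm lie below it.

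The mean deviation of the 39 genes from the control mean, on the log2 CPM scale, was 0.29 and 0.67 in heterozygous libraries 1 and 2, against 0.39, -0.22, 0.05 and -0.22 in controls 1 to 4. Heterozygous 2 was highest, but heterozygous 1 was below control 1, so the groups overlapped. The difference between group means was 0.48 and the SD among controls was 0.29. Heterozygous 2 was the highest library for 24 of the 39 genes and 17.4% of all genes, and heterozygous 1 for 8 and 13.4%. Control 1 was highest for 6 of the 39 and 7.95% of all genes, and control 3 for 1 and 18.4%. Among the controls, control 1 was highest for 28 of the 39 and for 2906 of all 16495 genes. The lowest control was control 2 for 18 of the 39 and 6168 of all genes. It was control 4 for 14 of the 39 and 3523 of all genes.

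**Figure D2:**
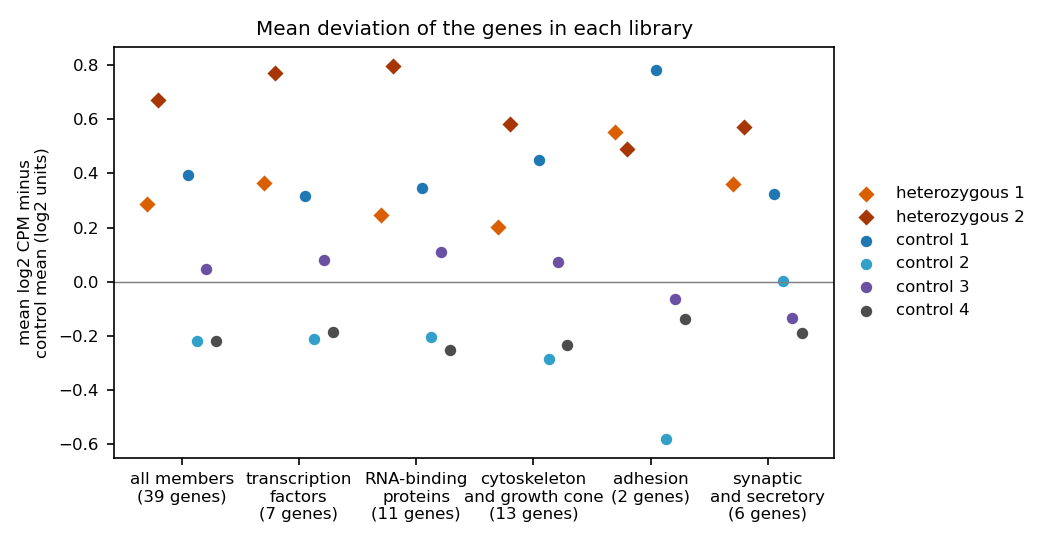
Mean deviation of the genes of each role from the control mean (log2 CPM), with diamonds for heterozygous libraries, left, and circles for controls, right. Over all 39 genes, control 1 at 0.39 lies between heterozygous 1 at 0.29 and heterozygous 2 at 0.67.

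The transcription factors had the highest median of the 5 roles, 0.64 over 7 genes, with 6 above 0 and 5 at an unadjusted p under 0.05. Nhlh1, a helix-loop-helix factor of newly postmitotic neurons (chromosome 1, 172052292 to 172057573, minus strand, GRCm38), was at 57.0 and 56.5 CPM in heterozygous libraries, against 35.7, 34.8, 21.8 and 35.8 CPM in controls. The heterozygous libraries nearly coincided above all controls, with means of 56.7 ± 0.339 and 32.0 ± 6.81 CPM (SD, n = 2 and 4), a log2 fold change of 0.83 ± 0.22 (SE) or 1.77-fold, and an edgeR adjusted p = 0.793. Its paralogue Nhlh2 (chromosome 3, 102010076 to 102015492, plus strand), the other gene whose promoter window is printed, was at 103 and 98.1 CPM, against 70.6, 68.8, 42.5 and 56.6 CPM in controls. Again both heterozygous libraries were above every control, and the log2 fold change was 0.75 ± 0.22 (edgeR adjusted p = 0.793).

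St18, a zinc-finger factor of the Myt family (chromosome 1, 6487231 to 6860940, plus strand), was at 81.2 and 120.2 CPM in heterozygous libraries, against 69.6, 38.2, 64.9 and 53.2 CPM in controls. The groups did not overlap, at a log2 fold change of 0.83 ± 0.27 (edgeR adjusted p = 0.793). Its relative Myt1, also a zinc-finger factor, was at 132 and 239 CPM against 140.5, 94.5, 135 and 106 CPM, so that heterozygous 1 lay below controls 1 and 3 (log2 fold change 0.64 ± 0.27, edgeR adjusted p = 0.850). Insm1, a zinc-finger factor of intermediate progenitors and newborn neurons, was at 132 and 176 CPM against 127, 99.6, 94.9 and 87.5 CPM. Heterozygous 1 was above control 1 by a small margin, and the log2 fold change was 0.59 ± 0.20 (edgeR adjusted p = 0.833). Myt1l, which represses non-neuronal genes, was at 7.52 and 18.7 CPM against 4.88 to 12.6 CPM in controls. Onecut2, a homeodomain factor, was at 30.9 and 26.5 CPM against 17.9 to 49.1 CPM, with a log2 fold change of -0.24 ± 0.38.

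**Figure D3:**
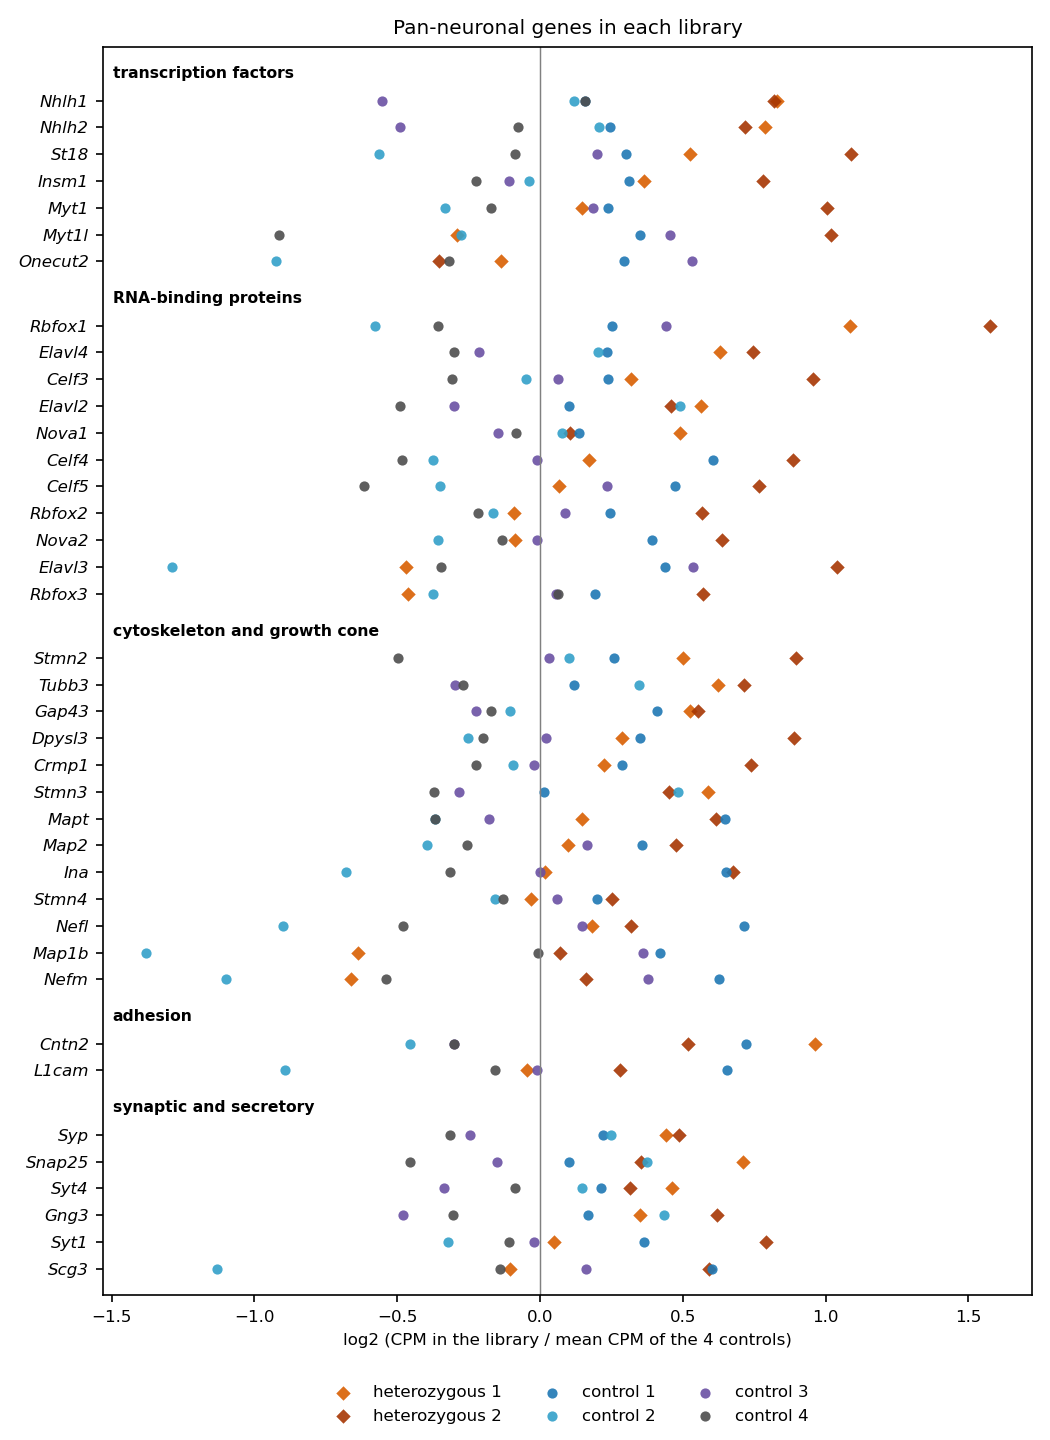
Level of each of the 39 pan-neuronal genes in each library, as the log2 ratio of its CPM to the mean CPM of the 4 controls, with diamonds for heterozygous libraries and circles for controls. For 12 genes, among them Nhlh1, Rbfox1 and Tubb3, both diamonds lie to the right of all 4 circles.

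The log2 fold change was positive for all 11 RNA-binding protein genes, their median was 0.48, and 3 were at an unadjusted p under 0.05. Rbfox1, a neuronal splicing regulator (chromosome 16, 5885355 to 7411526, plus strand), was at 3.35 and 4.70 CPM in heterozygous libraries, against 1.88, 1.06, 2.14 and 1.23 CPM in controls. It had the largest fold of the 39 genes, 2.55 (log2 fold change 1.35 ± 0.39, edgeR adjusted p = 0.793), on 38 to 231 reads a library. Elavl4, an RNA-binding protein of the Hu family that stabilises neuronal transcripts (chromosome 4, 110203722 to 110351909, minus strand), was at 186 and 201 CPM against 141, 138, 104 and 97.3 CPM. The groups did not overlap and the means were 193 ± 10.9 and 120.0 ± 22.8 CPM (SD, n = 2 and 4; log2 fold change 0.69 ± 0.20, edgeR adjusted p = 0.793).

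Celf3, a regulator of splicing and translation, was at 275 and 429 CPM in heterozygous libraries, against 261, 214, 231 and 179 CPM in controls. Both heterozygous libraries were above all controls, although heterozygous 2 was far above heterozygous 1 (log2 fold change 0.67 ± 0.23, edgeR adjusted p = 0.821). Nova2, a neuronal splicing factor and the RNA-binding gene with the highest CPM, was at 349 and 577 CPM against 487, 289.5, 369 and 339 CPM, and the groups overlapped. The log2 fold changes of the other 7 genes of this group ranged from 0.15 for Rbfox3, the NeuN antigen, to 0.57 for Celf4. Elavl2, a Hu family protein like Elavl4, was at 132 and 123 CPM in heterozygous libraries and 63.7 to 126 CPM in controls. Nova1, the splicing factor related to Nova2, was at 89.3 and 68.3 CPM against 57.4 to 69.8 CPM. For both genes heterozygous 1 was the highest library and heterozygous 2 lay within the range of controls. Elavl3, at 149 and 424 CPM against 84.4 to 299 CPM, varied more among controls than between group means. Of the exonic sequence of Nova2, 31.7% overlaps an antisense gene, and reads of that stretch cannot be assigned without strand.

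The 13 cytoskeletal and growth cone genes had a median log2 fold change of 0.40, with 11 above 0 and 5 at an unadjusted p under 0.05. Tubb3, the neuronal beta-tubulin (chromosome 8, 123411424 to 123422015, plus strand), was at 1884 and 2008 CPM in heterozygous libraries, against 1328, 1555, 994 and 1016 CPM in controls. The heterozygous libraries were above every control, with means of 1946 ± 88.1 and 1223 ± 269 CPM (SD, n = 2 and 4; log2 fold change 0.67 ± 0.22, edgeR adjusted p = 0.793). Stmn2, a stathmin that binds tubulin in growing axons (chromosome 3, 8509360 to 8561606, plus strand), was at 239 and 314 CPM against 202, 181, 173 and 119.6 CPM. It too did not overlap between groups (log2 fold change 0.71 ± 0.23, edgeR adjusted p = 0.793).

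Gap43, a growth cone protein, was at 83.5 and 85.2 CPM in heterozygous libraries, against 76.99, 53.9, 49.6 and 51.6 CPM in controls. Control 1 stood well above the other controls, and the log2 fold change was 0.54 ± 0.21 (edgeR adjusted p = 0.850). Dpysl3, a collapsin response mediator protein, was at 858 and 1304 CPM against 898, 591, 714 and 613 CPM. Crmp1, of the same family, was at 600.4 and 858 CPM against 628, 481, 507 and 441 CPM. For both genes heterozygous 1 was below control 1, and the log2 fold changes were 0.62 ± 0.24 and 0.50 ± 0.21 (edgeR adjusted p = 0.850 for both).

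Map1b, a microtubule-associated protein of early axons, had the highest CPM of the group in controls and a mean below that of controls in heterozygous libraries. It was at 1314 and 2142 CPM in heterozygous libraries, against 2735, 784, 2621 and 2030 CPM in controls, with a log2 fold change of -0.24 ± 0.47. The neurofilament gene Nefm was at 28.8 and 50.9 CPM against 21.2 to 70.3 CPM (log2 fold change -0.19 ± 0.48). In both genes control 2 was the lowest library and control 1 the highest. Part of the exonic sequence of Nefl (32.8%) and Nefm (19.2%) overlaps the other gene on the opposite strand. The remaining members of the group, Stmn3, Stmn4, Map2, Mapt, Ina and Nefl, had log2 fold changes of 0.12 to 0.52. Stmn3, a stathmin, was at 212 and 193 CPM in heterozygous libraries, and control 2, at 197 CPM, lay between them. Mapt, which encodes tau, was at 104 and 144 CPM against 72.9 to 147 CPM, with control 1 highest. Map2, a dendritic microtubule-associated protein, was at 438 and 569 CPM against 311 to 524 CPM.

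Both adhesion genes, whose proteins guide axons, were above 0 without reaching an unadjusted p under 0.05. Cntn2, the contactin of early axons, was at 105 and 77.4 CPM in heterozygous libraries, against 89.2, 39.4, 43.8 and 43.8 CPM in controls (log2 fold change 0.76 ± 0.34, edgeR adjusted p = 0.850). L1cam, an immunoglobulin adhesion molecule, was at 74.1 and 92.7 CPM against 120.2, 41.2, 75.8 and 68.5 CPM (log2 fold change 0.13 ± 0.37). Control 1 exceeded a heterozygous library for Cntn2 and both for L1cam.

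All 6 synaptic and secretory genes were above 0, with a median of 0.47, and 0 reached an unadjusted p under 0.05. Syp, a synaptic vesicle membrane protein, was at 59.9 and 61.9 CPM in heterozygous libraries, against 51.5, 52.5, 37.3 and 35.5 CPM in controls. Both heterozygous libraries were above every control (log2 fold change 0.46 ± 0.21, edgeR adjusted p = 0.850). Syt4, a synaptotagmin, was at 42.2 and 38.1 CPM against 35.5, 33.9, 24.2 and 28.8 CPM. Snap25, a SNARE protein of vesicle fusion, was at 16.5 and 12.9 CPM against 10.8, 13.1, 9.08 and 7.36 CPM, and control 2 was just above heterozygous 2. Gng3, a neuronal G protein gamma subunit and the gene of the highest CPM here, was at 111 and 134 CPM against 98.1, 118, 62.6 and 70.7 CPM. The calcium sensor Syt1 and the granin Scg3 had log2 fold changes of 0.47 and 0.28. Syt1 was at 65.8 and 110.2 CPM against 50.9 to 81.9 CPM, and Scg3 at 60.7 and 98.4 CPM against 29.9 to 99.3 CPM, so that heterozygous 1 lay within the range of controls for both.

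Levels per kilobase of exon, which allow genes to be ranked, placed Tubb3 first at 1042 CPM per kb in heterozygous libraries and 655 CPM per kb in controls. Stmn3 had 178 and 124, Dpysl3 164 and 107, and Map1b 109 and 129 CPM per kb in heterozygous and control libraries. The lowest in controls were Rbfox1, at 0.914 and 0.358 CPM per kb, and Myt1l, at 0.934 and 0.656 CPM per kb. Among controls, the coefficient of variation of the CPM was smallest for Nova1 (9.25%) and Stmn4 (11.8%) and largest for Nefm (50.7%), Elavl3 (49.04%) and Nefl (48.9%).

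The direction was also read within libraries alike for Y-linked reads. Heterozygous 1 was above control 2, both without such reads, for 36 of 39 genes and 49.6% of all genes, with a median difference among the 39 of 0.43 on the log2 CPM scale. Heterozygous 2 was above the mean of controls 1, 3 and 4 for 37 of 39 genes and 47.5% of all genes, with a median of 0.67 among the 39. It was above each of these 3 controls for 30 of the 39, against 30.4% of all genes. In both sets 34 of the 39 genes were above 0, against 23.9% of all genes. The exceptions were Gng3, Myt1l, Onecut2, Map1b and Rbfox3. With Y-linked reads as a covariate, 22 genes were higher at an unadjusted p under 0.05, against 4.66% of all genes in the same fit. Without both libraries lacking such reads, which leaves heterozygous 2 alone, 21 were higher at that threshold, against 6.43% of all genes. The interaction of genotype with Y-linked reads passed for 0 genes in edgeR (smallest adjusted p among the 39 of 0.26), with an unadjusted p under 0.05 for Map1b and Onecut2 and for 2379 of 16495 genes.

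**Figure D4:**
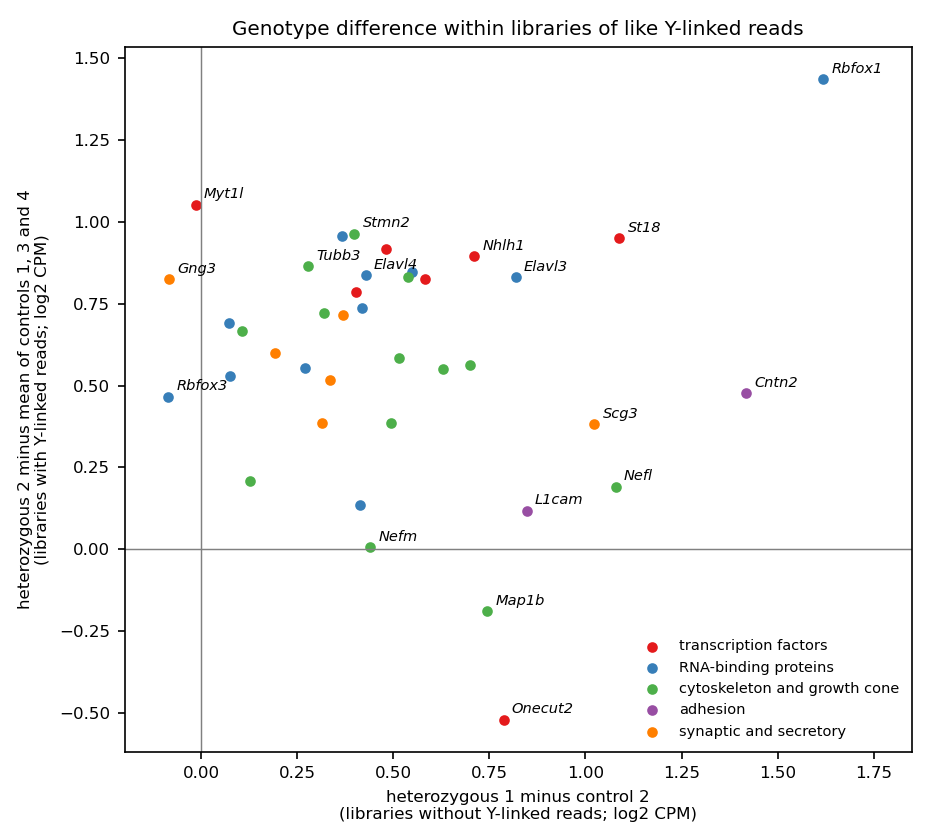
Difference in log2 CPM for each pan-neuronal gene between heterozygous 1 and control 2, which lack Y-linked reads, against the difference between heterozygous 2 and the mean of controls 1, 3 and 4. In the upper right, 34 of 39 genes are above 0 on both axes.

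Exon length was set beside the position of control 2 among the controls. On the log2 CPM scale, control 2 minus the other controls had a median of -0.03 over the 13 genes with the shortest exon length, -0.31 over the middle 13 and -0.41 over the longest 13, against 0.14, -0.17 and -0.44 for all genes in these length ranges. Single genes did not follow length alone. The difference was -1.64 for Map1b (15846 nt), -1.50 for Elavl3 (6890 nt) and -1.34 for Scg3, which is short (2738 nt). It was 0.70 for Stmn3 (1136 nt), 0.50 for Tubb3 (1868 nt) and 0.72 for Elavl2, which is long (8313 nt). Among the 13 genes with the shortest exon length (1136 to 5211 nt) the median log2 fold change was 0.49, among the middle 13 it was 0.62, and among the longest 13 (7347 to 16449 nt) it was 0.32. The medians of all genes in these ranges were 0.00, -0.04 and -0.11. After trends of length and GC content were removed from each library, the same groups of 13 had medians of 0.58, 0.73 and 0.50. In that fit 25 of the 39 genes (64.1%) had an unadjusted p under 0.05 and were higher, against 4.4% of all genes, and the smallest adjusted p in edgeR among the 39 was 0.572. Both heterozygous libraries were above all controls for 23 of the 39, against 11.8% of all genes. Map1b was then at 0.04 and Onecut2 at 0.02.

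**Figure D5:**
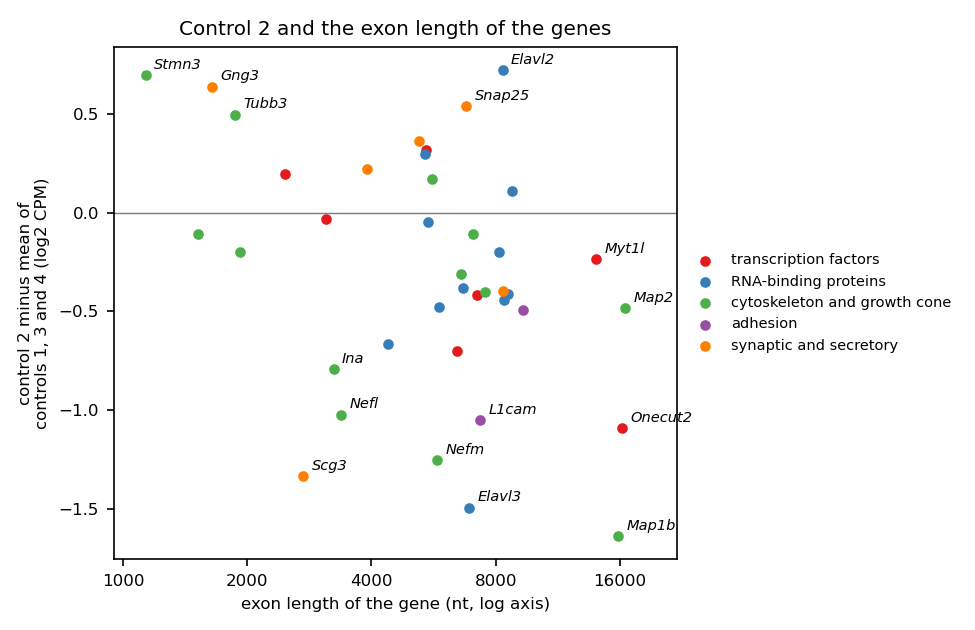
Difference in log2 CPM between control 2 and the mean of controls 1, 3 and 4 for each of the 39 pan-neuronal genes, against the exon length of the gene (nt, log axis), coloured by role. Map1b, at -1.64, is the lowest point and lies among the longest genes, and Stmn3, the shortest gene, lies at 0.70, but Scg3 is short and low and Elavl2 long and high.

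Genes around the programme were compared in the same fit. Among 60 other early neuronal genes tested, 52 were above 0, against 46.1% of all genes, with a median log2 fold change of 0.32. At an unadjusted p under 0.05 in edgeR, 7 were higher and 0 lower, against 1.75% and 3.98% of all genes. The Notch ligand Dll3 was at 159 and 197 CPM in heterozygous libraries, against 128, 127, 99.9 and 119.5 CPM in controls (log2 fold change 0.59). Ebf3, a transcription factor of migrating neurons, was at 47.6 and 53.5 CPM against 42.2, 25.2, 24.7 and 26.8 CPM (0.77). Hes6, which promotes differentiation, was at 115 and 122 CPM against 87.9, 95.8, 77.4 and 80.5 CPM (0.47).

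Of 11 proneural and related fate regulators tested, 10 were above 0 (median 0.25, range -0.47 to 0.66), against 46.1% of all genes. Both heterozygous libraries were above all controls for 1 of the 11 and below all controls for 1. The shares of all genes were 6.17% and 8.14%. The proneural factor Neurod1 averaged 17.3 ± 0.590 CPM in the heterozygous group, against 10.9 ± 2.61 CPM in the control group (SD, n = 2 and 4; log2 fold change 0.66). Repressors of the programme were mostly below 0. Of 9 tested, 1 was above 0, against 46.1% of all genes, and the median was -0.36. Both heterozygous libraries were below all controls for 4, against 8.14% of all genes. Heterozygous 1 was above control 2, both without Y-linked reads, for 4 of the 9, near the 49.6% of all genes. The median difference was -0.08 (log2 CPM). Heterozygous 2 was above the mean of controls 1, 3 and 4 for 2 of the 9, against 47.5% of all genes, with a median of -0.26. The repressor Hes1, a Notch target, averaged 36.3 ± 2.78 CPM in heterozygous libraries and 59.9 ± 14.8 CPM in controls (log2 fold change -0.72). Id3, an inhibitor of helix-loop-helix factors, averaged 52.7 ± 3.14 and 86.1 ± 13.3 CPM (-0.71), and Ptbp1, a repressor of neuronal exons, 406 ± 23.3 and 520.0 ± 58.4 CPM (-0.36). Among 21 other members of the same gene families, 14 were above 0, against 46.1% of all genes, with a median of 0.12. In edgeR 0 genes of these lists passed after adjustment, and all these lists share the same 6 libraries.

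Markers of other cells were summed for comparison. The summed level of 10 hypothalamic and glutamatergic neuron markers was 347 CPM in each heterozygous library and 226 to 306 CPM in controls. Of the 9 tested, 8 were above 0, against 46.1% of all genes. The heterozygous sums were above every control, and DESeq2 called 1 of these genes, against 0.468% of the genes it tested. The sum of 12 neural progenitor markers was 4038 and 4832 CPM in heterozygous libraries and 3946 to 6988 CPM in controls, with overlap between groups. Of the 12, 3 were above 0, against 46.1% of all genes. Heterozygous 1 was above control 2 for 8 of them, against 49.6% of all genes. Heterozygous 2 was above the mean of controls 1, 3 and 4 for 3 of them, against 47.5% of all genes. The sum of 12 MGE markers was 1652 and 2926 CPM in heterozygous libraries and 1066 to 2120 CPM in controls. In this sum heterozygous 2 was above every control and heterozygous 1 was not. Of the 12, 11 were above 0, against 46.1% of all genes. Heterozygous 1 was above control 2 for 6 of them, which is near the 49.6% of all genes. Heterozygous 2 was above the mean of controls 1, 3 and 4 for all 12, against 47.5% of all genes. The proliferation gene Mki67 was at 94.3 and 176 CPM in heterozygous libraries and at 69.0 to 807 CPM in controls, with control 2 the lowest of all libraries. In none of the lists that follow were the heterozygous libraries both above or both below all controls. Sums for blood were 154 and 0.0610 CPM against 11.8 to 49.99 CPM, and for microglia 9.76 and 0 against 1.90 to 76.4 CPM. For vascular cells the sums were 8.72 and 7.89 CPM against 5.09 to 26 CPM, for mesenchyme 198 and 78.5 against 124 to 213 CPM, and for surface ectoderm 10.2 and 3.15 against 5.57 to 8.66 CPM. The part of these cells in the higher levels of the pan-neuronal genes was not tested.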

How the data were processed

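RNA of sorted cells was sequenced in 2 heterozygous and 4 control libraries, of 37.4 to 49.2 M counts (in units of 1e+06). Per the labels, tdTomato-positive cells were sorted into lysis buffer and libraries made with a NuGEN mRNA kit. The submitters' processing notes name mm10 and the tools STAR, HTSeq and Trim Galore; the sources used here give no versions, annotation or strandedness. The authors deposited raw read counts for 38561 genes, which were used here, and a second table of normalized signal values for 18065 genes. In that deposited table each value was the count divided by a single factor per library (0.865 to 1.16), and the table served as an alternative.

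Counts were filtered with filterByExpr, scaled by TMM and tested with edgeR 4.0.16 (robust quasi-likelihood, R 4.3.3) over 16495 genes, with Benjamini-Hochberg adjustment at 0.05. DESeq2 1.42.0 and limma-voom (limma 3.58.1) were alternatives. Scores used log2 CPM with a prior count of 2. Exon length, GC content and coordinates came from GENCODE M21 (GRCm38), which matched 36639 of the gene IDs and all 39 members; length was known for 98.6% of tested genes. Length and GC trends were removed by loess (span 0.5) in each library and entered as offsets. A count of 0 allows up to 3 counts, or 0.0610 to 0.0835 CPM, for counting error only. The code was tested on simulated data. Values are given in each library for genes with an unadjusted p under 0.05, for the 2 with the smallest p and the 1 with the highest CPM in each role, and genes of the surrounding lists were named from the 3 with the smallest p in each, some with values in each library and some with group means. Elavl2, Elavl3, Map2, Mapt, Myt1l, Nefm, Nova1, Onecut2, Scg3, Stmn3, Syt1 and Syt4 also have values where their groups or libraries are described, and were chosen after their values were seen. The members and lists were chosen with earlier results of these data known. A further marker list is not reported here.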

Additional observations from a re-analysis of the deposited data

Results flagged for a closer look

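Among the 4 controls, a single library stood far from the other 3 for 4 of 40 groups of values examined, where chance gives about 1 in 20. Control 3 was low for Nhlh1, at 21.8 CPM. Control 1 was high for Mapt at 147 CPM, for Gap43 at 76.99 CPM and for Cntn2 at 89.2 CPM.

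For Rbfox3, Myt1l, Onecut2, Gng3 and Map1b the heterozygous library differed in opposite directions from its controls in libraries without and with Y-linked reads, on the log2 CPM scale. The differences were -0.086 and 0.47 for Rbfox3, -0.015 and 1.05 for Myt1l, 0.79 and -0.52 for Onecut2, and -0.084 and 0.83 for Gng3. For Map1b they were 0.74 and -0.19. The interaction passed for none of these genes in edgeR after adjustment over all genes, and the set without Y-linked reads holds 1 library of each genotype.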

How the results depend on the processing

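Across 17 alternatives, 24 of the 39 genes kept the sign of their log2 fold change in every one. The number of genes passing an adjusted p of 0.05 was 0 in edgeR, 74 with DESeq2 and 11 with a replicate block by sample code, none of them among the 39. Genes of the set with an unadjusted p under 0.05 numbered 13, against 22 with Y-linked reads as a covariate, 25 with length and GC trends removed, 21 without both libraries lacking Y-linked reads (6.43% of all genes), 0 under the block and 2 to 18 when each library was left out in turn. Genes above all controls numbered 12 (6.17% of all genes), and 23 with length and GC trends removed (11.8%). They numbered 30 without both libraries lacking Y-linked reads, against 30.4% of all genes, and 12 to 27 with a library left out. The share of all genes was 19.9% without heterozygous 1, which gave the 27, and 8.64% without control 1. It is not given here for leaving out the other libraries. The median of 0.49 ranged from 0.22 to 0.63 with a library left out.

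Signs turned for Map1b (0.19) and Nefm (0.13) with the Y-linked covariate, and for Map1b (0.036) and Onecut2 (0.025) with length and GC trends removed. Under the block they turned for Nova1 (-0.033), Mapt (-0.030), Nefl (-0.39), Cntn2 (-0.21), L1cam (-0.37) and Scg3 (-0.012). With a library left out, ranges crossed 0 for Elavl3 (-0.47 to 1.05), L1cam (-0.066 to 0.43), Map1b (-0.64 to 0.082), Myt1l (-0.30 to 1.03), Nefm (-0.67 to 0.18), Nova2 (-0.093 to 0.65), Rbfox2 (-0.10 to 0.58), Rbfox3 (-0.47 to 0.58), Scg3 (-0.11 to 0.60) and Stmn4 (-0.035 to 0.26); the cause was not tested. Heterozygous 2 and control 1 are the single pair across genotypes with a shared code number, so the genotype difference under the block rests on these libraries alone. Their deviations correlated at 0.16 over genes, and those of controls 2 and 3, which share another number, at -0.52. These correlations cannot show whether the code numbers mark true pairs, and the pairing is not established.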
